A study of Mus musculus with 2 samples.

Results

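The miRNAs described here are 10 mature miRNAs of the miR-17-92, miR-106a-363 and miR-106b-25 clusters, among 1900 miRNAs on the array. They were chosen by name, as the miRNA spots whose name column holds mmu-miR-17-5p, mmu-miR-18a-5p, mmu-miR-19a-3p, mmu-miR-20a-5p, mmu-miR-19b-3p, mmu-miR-92a-3p, mmu-miR-106a-5p, mmu-miR-106b-5p, mmu-miR-93-5p or mmu-miR-25-3p, and each name was found on 1 spot that carries no other name. The study compared the miRNAs of extracellular vesicles (EVs) from the plasma of C57BL/6 mice, a strain whose blood flow recovers after ligation of the femoral vessels, with those of BALB/c mice, in which it does not. Mice of both strains were 8 weeks old, all had the left femoral vessels ligated, and plasma was taken 24 h later. The labels name a ligated and severed artery, and the methods name the artery and vein. The EV RNA of 5 mice of a strain was pooled and read on 1 3D-Gene miRNA oligo chip, an array with 1 spot per miRNA that is read by Cy5 fluorescence. The groups are therefore 1 array of C57BL/6 and 1 array of BALB/c, with no mice without a ligation and no replicates, and for that reason values are printed without an SD and the strains were not tested against each other.

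The miR-17-92 cluster is transcribed as 1 long RNA that is cut into several miRNA hairpins, and the miR-106a-363 and miR-106b-25 clusters are its paralogs. The miRNAs of these clusters are known for repressing mRNAs that hold back the cell cycle or favour cell death, such as Cdkn1a and Bcl2l11, and their transcription is raised by Myc in dividing cells. In blood vessels, miR-19 is known for repressing the anti-angiogenic Thbs1, while miR-92a is known for restraining the growth of vessels, in part through the integrin subunit Itga5. Several of them are also abundant in red blood cells and platelets, which are sources of RNA in plasma.

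A miRNA recognises its targets mainly through its seed, bases 2 to 8 from the 5′ end. The mature sequences are shown because the seed sorts the 10 miRNAs into families that cut across the clusters, and because some members are almost the same along their whole length. All 10 matched an entry of RefSeq for the mouse assembly GRCm38.p6, and the seed is in capitals.

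The family of miR-17 has 5 of the members, from all 3 clusters:
miR-17-5p: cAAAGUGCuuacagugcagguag
miR-20a-5p: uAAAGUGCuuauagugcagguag
miR-106a-5p: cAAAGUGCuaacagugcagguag
miR-106b-5p: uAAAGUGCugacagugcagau
miR-93-5p: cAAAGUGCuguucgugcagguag

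miR-18a has a seed of its own among the members, which differs from that of the miR-17 family:
miR-18a-5p: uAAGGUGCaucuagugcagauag

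The family of miR-19 has both of its members in the miR-17-92 cluster:
miR-19a-3p: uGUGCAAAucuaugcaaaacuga
miR-19b-3p: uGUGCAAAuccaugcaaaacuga

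The family of miR-92 has 1 member in the miR-17-92 cluster and 1 in the miR-106b-25 cluster:
miR-92a-3p: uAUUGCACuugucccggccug
miR-25-3p: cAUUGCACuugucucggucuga

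With positions counted from the 5′ end, miR-17-5p and miR-106a-5p differ over 23 bases by U10A, and miR-19a-3p and miR-19b-3p by U11C. miR-17-5p differs from miR-20a-5p by C1U and C12U. Whether the spots of such near-identical miRNAs also bind each other's RNA was not tested, so that their values may not be separate measurements. In the same annotation, the genes of the miR-17-92 cluster are on chromosome 14 in the order Mir17, Mir18, Mir19a, Mir20a, Mir19b-1 and Mir92-1. Mir92-1 is within the bounds of the long non-coding RNA gene Mir17hg and Mir19b-1 overlaps it in part. Mir106a is on chromosome X and overlaps the non-coding RNA gene Kis2 in part. Mir106b, Mir93 and Mir25 are on chromosome 5 within the bounds of Mcm7, which encodes a subunit of the replicative helicase. miR-19b-3p and miR-92a-3p each have a second gene in the miR-106a-363 cluster, Mir19b-2 and Mir92-2, and the array cannot tell from which gene a mature miRNA came.

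Intensities are in arbitrary units. The background of each array was estimated from its 896 empty (BLANK) spots, of which 806 were used after the 45 highest and the 45 lowest were dropped. It had a mean of 98.3 and an SD of 3.62 in C57BL/6, and a mean of 102 and an SD of 4.02 in BALB/c. Detection was set at 2 SD over the mean, and the resulting thresholds were 106 in C57BL/6 and 111 in BALB/c. They were passed by 638 miRNAs in C57BL/6 and 187 in BALB/c, of which 178 were shared. Of 174 spots without a probe, 9 passed the C57BL/6 threshold and 8 the BALB/c threshold. A signal is the intensity minus the background.

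All 10 members were detected in the C57BL/6 EVs and 8 of 10 in the BALB/c EVs. The exceptions were miR-18a-5p and miR-19a-3p of the miR-17-92 cluster, which were below the threshold in BALB/c. Of all 1900 miRNAs, 33.6% were detected in C57BL/6, 9.84% in BALB/c and 9.37% in both. Detection in C57BL/6 alone was seen for 2 members and for 24.2% of all miRNAs, and detection in BALB/c alone for 0 members and 0.474% of all miRNAs. In the following, a miRNA is called early registered if its miRBase accession number is no higher than the highest among the members. Those with a higher number are called registered later, and dates of registration were not used. Of the 162 early registered miRNAs, 60.5% were detected in C57BL/6, 37.7% in BALB/c and 36.4% in both. All intensities of the members were low beside the brightest miRNA of each array, which had 17810 in C57BL/6 and 1845 in BALB/c. Those of the members ran from 108 to 170 in C57BL/6 with a median of 152, and from 105 to 133 in BALB/c with a median of 120. For comparison within each array, the median of all detected miRNAs was 118 in C57BL/6 and 126 in BALB/c. The BALB/c median of the members also counts the 2 that were not detected there, so the sets are not alike.

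**Figure D1:**
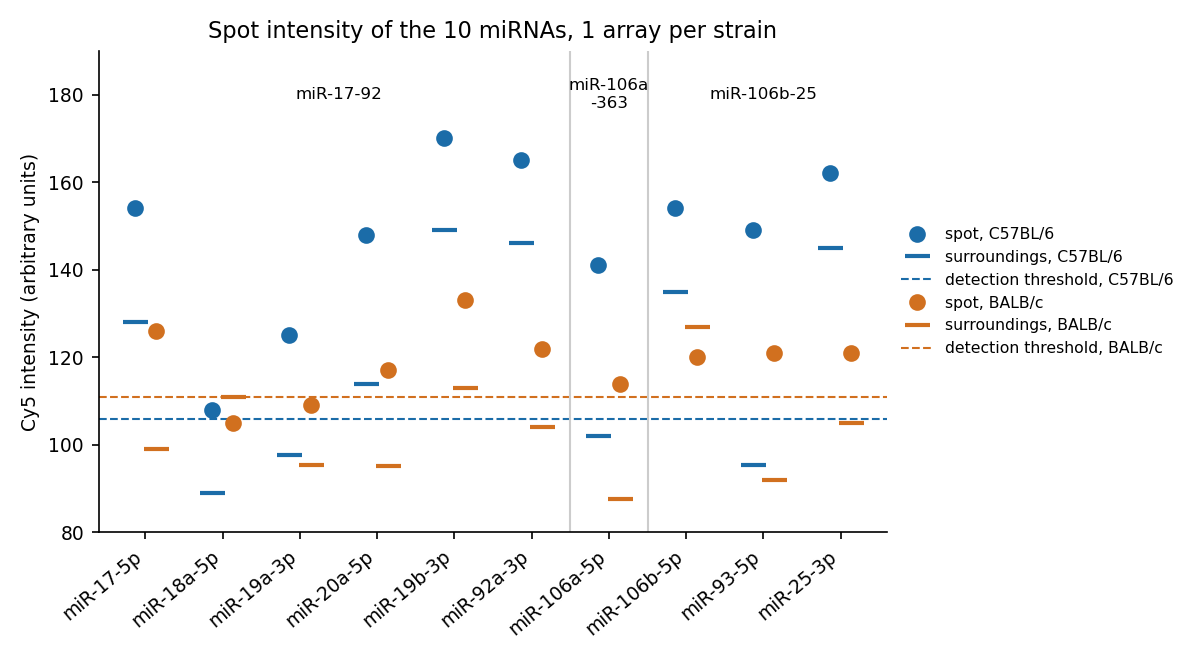
Cy5 intensity (arbitrary units, axis from 80) of the spot of each member (dots) and of its surroundings (bars) on the C57BL/6 array (blue) and the BALB/c array (orange), with the detection threshold of each array as a dashed line. All 10 members lie above the C57BL/6 threshold of 106, while miR-18a-5p at 105 and miR-19a-3p at 109 lie below the BALB/c threshold of 111.

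In the miR-17-92 cluster, miR-19b-3p had an intensity of 170 in C57BL/6 and 133 in BALB/c. miR-92a-3p had 165 and 122, and miR-17-5p, which gives its family its name, had 154 and 126. miR-20a-5p had 148 in C57BL/6 and 117 in BALB/c. These 4 miRNAs lay 13.8 to 19.9 SD above the background in C57BL/6 and 3.50 to 7.51 SD above it in BALB/c. miR-19a-3p had 125 and 109, which is 7.34 SD above the C57BL/6 background and 1.55 SD above the BALB/c background. miR-18a-5p had 108 and 105, which is 2.77 and 0.704 SD above the background, so that it would not be detected on either array at 3 SD. Its values were near the background on both arrays, and in C57BL/6, 21 of the 896 BLANK spots were at least as bright.

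In the miR-106b-25 cluster, miR-25-3p, which has the seed of miR-92a, had an intensity of 162 in C57BL/6 and 121 in BALB/c. miR-106b-5p, which is known for repressing Cdkn1a, had 154 and 120. miR-93-5p, a miRNA linked to angiogenesis in ischemic muscle, had 149 and 121. The 3 miRNAs of this cluster differed by less than 1 SD of the BLANK spots in BALB/c, where they lay 4.47 to 4.59 SD above the background. From the miR-106a-363 cluster, miR-106a-5p had 141 in C57BL/6 and 114 in BALB/c. It lay 11.7 SD above the C57BL/6 background and 2.76 SD above the BALB/c background, closest to the threshold among the 8 members detected in both strains. The brightness of a spot also depends on its probe, so that the order of the members on an array is not an order of their amounts. The order was nearly the same on both arrays (Spearman's rho 0.952 across the 10 members, which are not independent).

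The unscaled signals of all 8 members detected in both strains were higher in C57BL/6, from 2.37-fold for miR-17-5p to 3.80-fold for miR-106a-5p. The shared miRNAs as a whole were brighter in C57BL/6, however, and their median ratio was 3.93-fold over the 178. All 8 members lay below this median. On signals scaled to the same 75th percentile of the shared miRNAs, which divides the ratio by 5.32, all 8 members were higher in BALB/c, from 1.40-fold for miR-106a-5p to 2.25-fold for miR-17-5p, as were 58.4% of the shared miRNAs. On the authors' values, in which the median of the detected miRNAs of each array is 25, all 8 were higher in C57BL/6, from 2.84-fold to 4.56-fold, as were 95.5% of the shared miRNAs. The direction between the strains thus depends on the scaling, and the ratios below are given as log2 of C57BL/6 over BALB/c minus the median log2 ratio of the shared miRNAs, in which any single factor between the arrays cancels.

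Relative to the shared miRNAs, the log2 ratios of the 8 members ran from -0.73 to -0.05, with a median of -0.27. None was more than 2-fold below or above the shared median, while 21.3% of the shared miRNAs were more than 2-fold below it and 32.6% more than 2-fold above it. Below the shared median lie 50% of the shared miRNAs by definition. By ratio, the members held places between 93 and 126 of 178, counted from the highest. As there are no replicates, a range was taken by shifting the C57BL/6 and BALB/c signals in opposite directions, each by 2 SD of its own BLANK spots. For 7 of the 8 members this range included the shared median.

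In the miR-17-92 cluster, miR-17-5p had a log2 ratio of -0.73 (range -1.35 to 0.05) and miR-19b-3p one of -0.72 (range -1.21 to -0.13). miR-19b-3p was thus the member whose range lay wholly below the shared median. This did not hold with normexp and quantile normalization, where it was at -0.05, or against the early registered miRNAs (-0.01), those of like GC content (-0.09) or those of like level (-0.45, range -0.94 to 0.13), and it was not detected once the surroundings were subtracted. Its BALB/c signal of 30.2 lay 7.51 SD above the background. miR-92a-3p was at -0.17 (range -0.84 to 0.76) and miR-20a-5p at -0.14 (range -1.02 to 1.28). The median of the 4 was -0.45. Their values lay up to 0.59 apart on the log2 scale, which is less than the width of the range of each of them.

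In the miR-106b-25 cluster, miR-93-5p was at -0.47 (range -1.22 to 0.57), miR-106b-5p at -0.34 (range -1.08 to 0.69) and miR-25-3p at -0.19 (range -0.89 to 0.79). The median of the 3 was -0.34. miR-106a-5p of the miR-106a-363 cluster was at -0.05 with the widest range of the members, from -1.10 to 2.04, and a BALB/c signal of 11.1. For all 28 pairs of members the ranges overlapped.

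By seed, the median was -0.34 for the 5 members of the miR-17 family and -0.18 for miR-92a-3p and miR-25-3p. It was -0.72 for the miR-19 family, which rests on miR-19b-3p alone. The pair of miR-92a-3p and miR-25-3p, from different clusters, lay within 0.02 of each other. Within the miR-17 family, miR-17-5p and miR-106a-5p, which differ by 1 base, lay furthest apart, at -0.73 and -0.05, again with overlapping ranges. Every pair of ranges overlapped, so that no 2 of the 8 members could be told apart by their ranges. The ranges were 1.08 to 3.14 wide while the members spanned 0.68, so that overlap was likely from the outset. Overlap of single ranges does not measure the noise of a median, and differences between clusters or seed families were not tested.

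**Figure D2:**
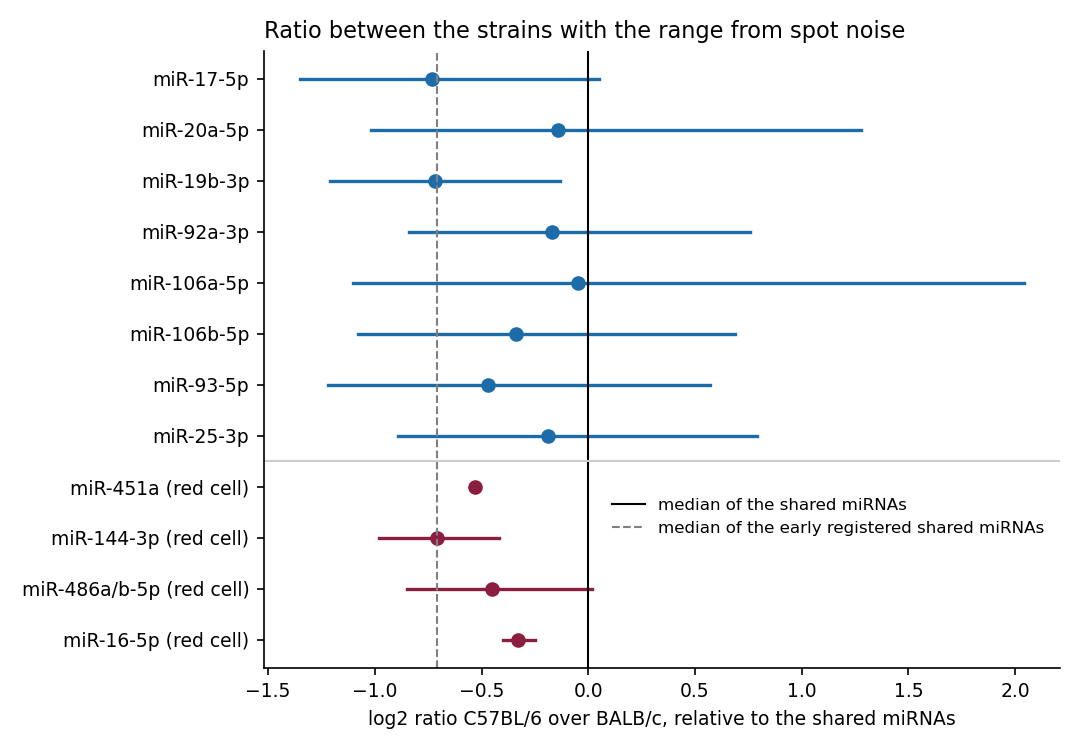
log2 ratio of C57BL/6 over BALB/c, with the median of the 178 shared miRNAs set to 0 (solid line), for the 8 members detected in both strains (blue) and for red cell miRNAs (dark red). The bars show how far the ratio moves when each signal is shifted by 2 SD of its BLANK spots and are not replicate errors, and the dashed line is the median of the 59 early registered shared miRNAs at -0.71. All 8 members lie between -0.73 and -0.05, and 7 of the 8 bars cross 0.

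For miR-18a-5p and miR-19a-3p, which were not detected in BALB/c, a lower bound on the ratio was taken against the lowest BALB/c signal detected, 8.08. On unscaled signals, miR-19a-3p was at least 3.29-fold and miR-18a-5p at least 1.24-fold higher in C57BL/6, both of which are below the median ratio of 3.93-fold of the shared miRNAs. Spot noise is left out of both bounds. With the C57BL/6 signal lowered by 2 SD, that of miR-18a-5p was 2.79, under the floor of 8.08, so that no bound was left, and that of miR-19a-3p was 2.39-fold over the floor. On the authors' values the bounds were 3.94-fold and 1.49-fold. On scaled signals neither had a bound above 1. For these 2 members, a ratio above that of the shared miRNAs was not detectable at this intensity.

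The members were set beside other groups of shared miRNAs, as a description. Of the 59 early registered shared miRNAs, 91.5% lay below the shared median, and their median was -0.71. Without the members, the other 51 had a median of -0.76 with quartiles of -1.22 and -0.46. Against the median of the early registered miRNAs, 6 of the 8 members lay above it, and miR-17-5p and miR-19b-3p just below it at -0.02 and -0.01. Among the 59, the members held places between 7 and 33, counted from the highest ratio. The 46 shared miRNAs with a mean level within the range of the members had a median of -0.27, the same as the members, and 4 of the 8 members lay below it. The 38 of them that are not members had a median of -0.35. That all 8 members lay below the median of all shared miRNAs is thus shared with most other early registered miRNAs on these arrays.

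**Figure D3:**
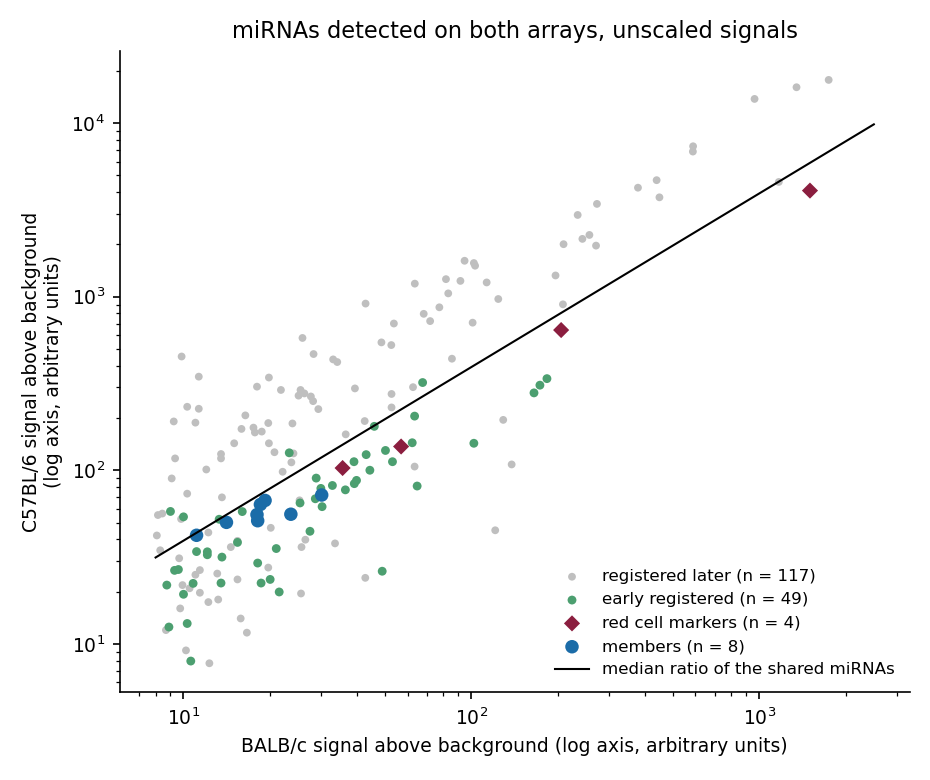
Unscaled signal above background in C57BL/6 against that in BALB/c (both axes logarithmic, arbitrary units) for the 178 shared miRNAs, with the members in blue, red cell miRNAs as dark red diamonds, other early registered miRNAs in green and miRNAs registered later in grey. The line marks the median ratio of 3.93-fold. The members lie close below the line, above many of the early registered miRNAs. By brightness they hold places 108 to 132 of the 178 in C57BL/6 and 74 to 148 in BALB/c.

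The GC content of the members, taken from the sequences above, ran from 34.8% for miR-19a-3p to 57.1% for miR-92a-3p. A RefSeq sequence was matched for 151 of the 178 shared miRNAs (84.8%), with a median GC content of 59.1%. Across these 151, the ratio between the strains rose with the GC content (Spearman's rho 0.686, across miRNAs of the same pair of arrays). The 67 shared miRNAs within the GC range of the members had a median log2 ratio of -0.63, or -0.66 for the 59 that are not members, while the 80 with a higher GC content had a median of 1.32. Against the median of the 67, 6 of the 8 members lay above it. Whether registration and GC content each go with the ratio apart from the other was not tested.

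**Figure D4:**
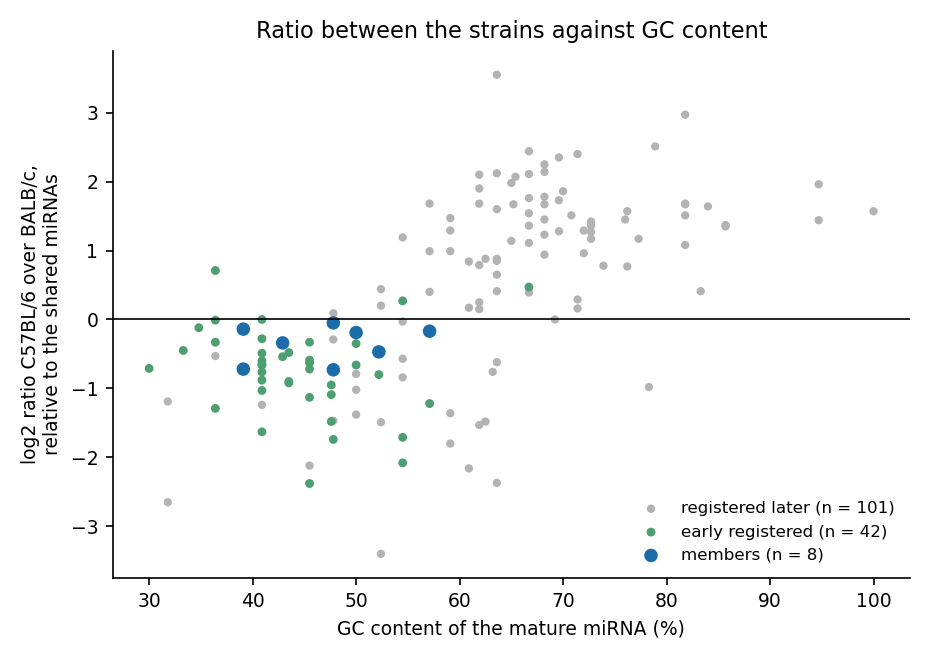
log2 ratio of C57BL/6 over BALB/c relative to the shared miRNAs against the GC content of the mature miRNA (%), for the 151 shared miRNAs with a sequence, with members in blue, other early registered miRNAs in green and miRNAs registered later in grey. The ratio is mostly below 0 at a low GC content and mostly above 0 at a high one, and 6 of the 8 members lie above the median of -0.63 of the points within their GC range.

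Each hairpin can give a miRNA from either arm. The other 18 mature products of the 3 clusters were listed as well. Of all 1900 miRNAs, 33.6% were detected in C57BL/6 and 9.84% in BALB/c, and of these 18 products 8 and 2. In the miR-17-92 cluster, 1 of 6 was detected in C57BL/6, miR-17-3p at 107, and none in BALB/c. In the miR-106b-25 cluster, miR-106b-3p and miR-93-3p, both at 106, were detected in C57BL/6, and none of the 3 in BALB/c. These 3 miRNAs lay 2.11 to 2.26 SD above the C57BL/6 background, close to the threshold.

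In the miR-106a-363 cluster, 5 of 9 were detected in C57BL/6 and 2 in BALB/c. miR-363-5p had an intensity of 188 in C57BL/6 and 112 in BALB/c. Its log2 ratio relative to the shared miRNAs was 1.33 (range 0.29 to 4.54), above that of each of the 8 members, and it lay 24.8 SD above the C57BL/6 background and 2.26 SD above that of BALB/c. Its range did not overlap those of miR-17-5p (up to 0.05) and miR-19b-3p (up to -0.13) of the miR-17-92 cluster. At a threshold of 3 SD miR-363-5p was not detected in BALB/c. By its accession number it was registered later. Among shared miRNAs, 91.5% of the early registered lay below the shared median, against 50% of all. Its ratio was not set beside those of other miRNAs registered later. miR-363-3p, the arm that shares the seed of miR-92a, had 106 in C57BL/6 and 99.0 in BALB/c. miR-20b-5p, which has the seed of miR-17, had 133 and 111 and a log2 ratio of 0.09 (range -1.23 to 5.33). miR-92a-2-5p had 132 in C57BL/6 and 107 in BALB/c, where it was not detected. With a lower bound of 4.19-fold on unscaled signals, its ratio was above the median of the shared miRNAs by at least 0.09 on the log2 scale, a bound that does not allow for spot noise. With its C57BL/6 signal lowered by 2 SD, the bound was 3.29-fold, below the shared median. miR-18b-3p had 106 and 98.7, and it was detected in C57BL/6. The remaining products, 10 of the 18, were detected in neither strain.

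**Figure D5:**
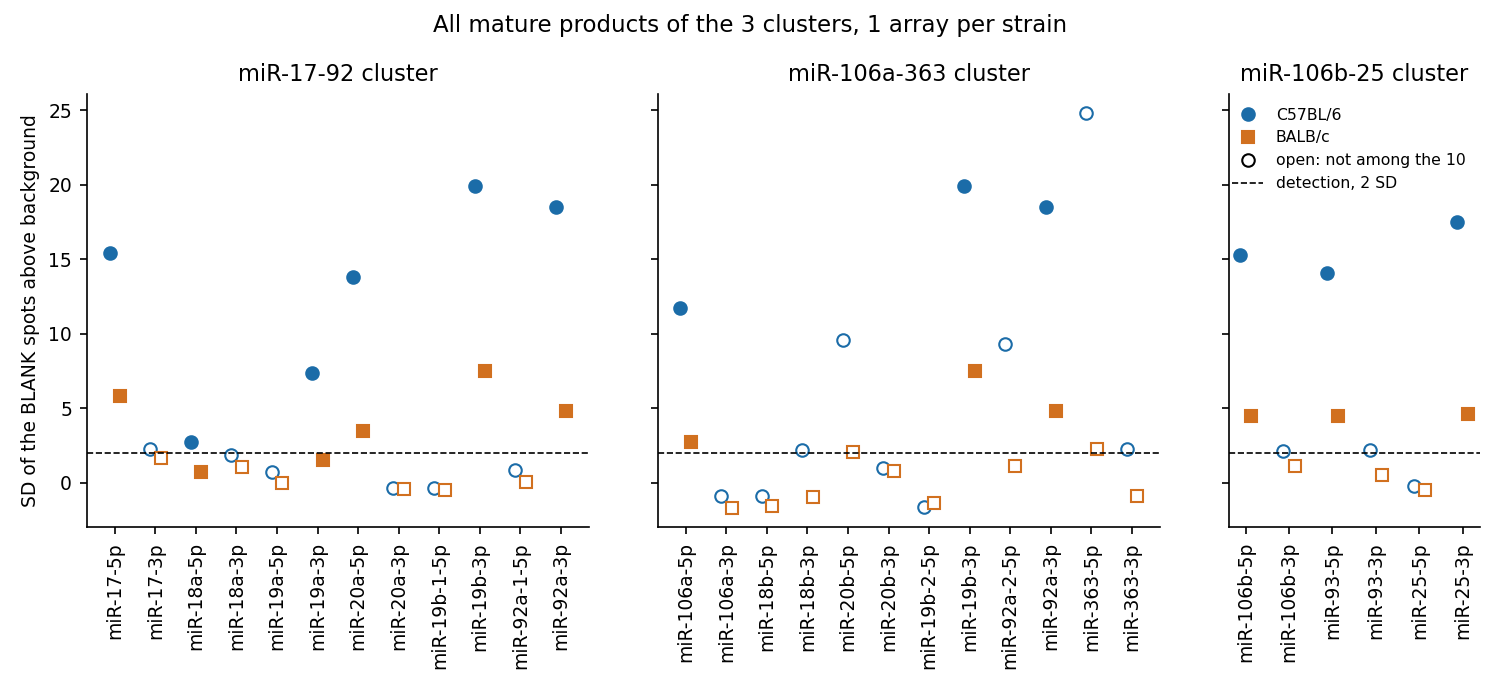
Distance of each spot from the background, in SD of the BLANK spots of its array, for the mature products of the 3 clusters in the order of their hairpins, in C57BL/6 (blue circles) and BALB/c (orange squares). Filled symbols are the 10 members and open symbols the other 18 products, and miR-19b-3p and miR-92a-3p are drawn in both clusters that encode them. All 10 members lie above the dashed line of 2 SD in C57BL/6, and the highest open symbol is miR-363-5p at 24.8 SD.

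Markers of blood cells were measured beside the members, since red blood cells and platelets hold these miRNAs. Of 5 spots for red cell miRNAs, 4 were detected on both arrays, namely miR-451a, miR-144-3p, miR-16-5p and the spot shared by miR-486a-5p and miR-486b-5p. miR-451a had an intensity of 4180 in C57BL/6 and 1603 in BALB/c. The log2 ratios of the 4 relative to the shared miRNAs ran from -0.71 to -0.33 with a median of -0.49, within the span of the members. That span was not particular to red cell miRNAs, as it also held the median of the 59 early registered shared miRNAs, -0.71. The summed signal of the 4 red cell spots and miR-144-5p, which was at the background, was 4963 in C57BL/6 and 1800 in BALB/c. This is a ratio of 2.76 on unscaled signals. Most of this sum was miR-451a, with signals of 4081 and 1500 and a ratio of 2.72. The summed signal of the 10 members was 494 and 162, a ratio of 3.06.

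The 5 spots listed for platelets were those of miR-223-3p, miR-191-5p, miR-21a-5p, miR-22-3p and the one shared by miR-199a-3p and miR-199b-3p. Whether their RNA came from platelets was not tested. All 5 were detected on both arrays, with a median log2 ratio of -1.13. They ran from -1.63 for the spot shared by miR-199a-3p and miR-199b-3p to -0.01 for miR-21a-5p. Their summed signal was 707 in C57BL/6 and 337 in BALB/c. Of 5 leukocyte miRNAs, 2 were detected in both strains, miR-142a-5p at -0.45 and miR-150-5p at 0.45, and miR-155-5p was at the background on both arrays. The summed signal of the 5 was 187 and 40.5. Of the endothelial miRNAs, miR-126a-3p was at -0.59 and miR-126a-5p at -1.24. The muscle miR-1a-3p was at -2.88 and miR-133a-3p at -1.48, with miR-206-3p detected in neither strain, and the liver miR-122-5p was detected in C57BL/6 at 108 and not in BALB/c at 109. The part of blood cell RNA in the values of the members was not tested, and fewer EVs of a source and less RNA per EV cannot be told apart.

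The members are dim beside the brightest miRNAs, and the light around a spot matters for them. In C57BL/6, the surroundings of their spots had a median of 121, against 77.8 around BLANK spots, and in BALB/c 101 against 85.7. All 10 spots were brighter than their surroundings in C57BL/6, and 8 of 10 in BALB/c, where miR-18a-5p and miR-106b-5p were darker. This does not set the members apart from empty spots. The BLANK spots used had a mean of 98.3 in C57BL/6 and 102 in BALB/c, also above the medians around BLANK spots. With the surroundings subtracted from every spot, BLANK spots included, 3 members passed the threshold in C57BL/6, namely miR-93-5p, miR-106a-5p and miR-20a-5p, and miR-93-5p alone in BALB/c and in both strains. The miRNAs detected on the whole array fell as well, from 638 to 254 (13.4%) in C57BL/6, from 187 to 78 (4.11%) in BALB/c and from 178 to 74 (3.89%) in both. The log2 ratio of miR-93-5p relative to the 74 miRNAs then shared was -0.77. In C57BL/6, the logarithms of the surroundings and of the spot were correlated over the detected miRNAs (Pearson's r 0.965). These are miRNAs of 1 array and are not independent. Around miR-451a, the brightest marker spot, the surroundings had 3658 in C57BL/6 and 1081 in BALB/c. The spot was 522 above them on both arrays, while its signal without the subtraction was 2.72-fold higher in C57BL/6. Whether the subtraction also takes away signal was not tested.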

How the data were processed

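Plasma EVs were isolated with a total exosome isolation kit, and their RNA was labelled with Cy5 and hybridised to 3D-Gene chips. The methods name an exosome RNA kit for the extraction, whereas a different kit, and cells as the material, stand in the labels. The deposited scanner files hold the median Cy5 intensity of each of 3200 spots and of its surroundings, with neither subtraction nor normalization by the authors. The authors' table holds an intensity per detected miRNA. Its method was not given in the sources used here. Each value equalled the signal of the report multiplied by a constant, 1.26 in C57BL/6 and 1.06 in BALB/c, and 0 detection calls differed.

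The surroundings were not subtracted in the main setting. Scaling used the 75th percentile of the shared miRNAs (333 and 62.6 before scaling). With 1 array per strain, no p-value was computed, and precision is limited by the number of arrays. The values named are those of the members, the other products of their clusters and the cell type markers. The members and lists were chosen with earlier results of these data known.

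Alternative settings were a threshold of 3 SD, use of all BLANK spots, the authors' table, scaling on each array's own detected miRNAs, on spike controls or not at all, normexp (offset 50) and then quantile normalization, other reference miRNAs (early registered or of like level), and a minimum of 10 SD. Subtraction of the surroundings and the reference by GC content were added after the data were seen. Scripts ran in Python 3.11.15 (pandas 2.3.3, numpy 2.4.6, scipy 1.17.1, matplotlib 3.10.9), and limma 3.58.1 in R 4.3.3 gave the normexp values.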

Additional observations from a re-analysis of the deposited data

How the results depend on the processing

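The direction between the strains depended on the scaling. The median log2 ratio of the members was -0.71 on the shared 75th percentile, 1.97 on each array's own detected miRNAs, 1.71 without scaling and 0.85 on the spike controls. Relative to the shared miRNAs it was -0.27, and the reference decided how many of the 8 members lay below it: 2 with the early registered miRNAs, 4 with those of like level and 2 with those of like GC content. The value of miR-19b-3p, and with it that of the miR-19 family, moved from -0.72 to -0.05 with normexp and quantile normalization, -0.01 with the early registered reference and -0.09 with the GC reference. Its range included the reference median with these 2 and with the reference of like level (-0.45, range -0.94 to 0.13). Of 56 values of single members under the alternatives, 53 stayed within their spot noise, 38 were below 0 and 17 above. The ranges from spot noise were 1.08 to 3.14 wide, so that staying within them was likely from the outset. All 17 values above 0 were among the 53. The 3 others were values of miR-19b-3p, which had the narrowest range. The 56 values are not separate checks. The 8 from the authors' table equal the main ones by construction, as a constant per array cancels. A change of reference shifts all members by the same amount.

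With a minimum of 10 SD, 8 members were left in C57BL/6, where 213 of all 1900 miRNAs (11.2%) were left. In BALB/c, in both strains or below the shared median, 0 members were left. Of all miRNAs, 61 (3.21%) were left in BALB/c and 59 (3.11%) in both. With the surroundings subtracted, 3 members were left in C57BL/6 and 1 in BALB/c, in both strains and below the shared median. Of all miRNAs, 254, 78 and 74 were left in C57BL/6, BALB/c and both. The other 18 products detected in C57BL/6 numbered 3 at 3 SD, with untrimmed BLANK spots and with the surroundings subtracted, and 1 at 10 SD. In BALB/c the number was 0 under each of these. Of all miRNAs, 26.1%, 28.5%, 13.4% and 11.2% were left in C57BL/6 under these settings, in the same order. In BALB/c the shares of all miRNAs were 7.58%, 8.58%, 4.11% and 3.21%. At 3 SD, 9 members were detected in C57BL/6 and 7 in both strains, without miR-18a-5p and miR-106a-5p in turn, and 140 of all miRNAs were shared. The cause of these changes was not tested, apart from the minimums, which leave out dim miRNAs by construction. No paired analysis was possible because each strain has 1 array.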
